A study of Mus musculus with 6 samples.

Results

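The 8 genes *Ryr2*, *Jph2*, *Casq2*, *Cacna1c*, *Atp2a2*, *Pln*, *Sln* and *Slc8a1* encode the machinery that moves calcium in heart muscle cells. Open chromatin at these genes was compared between the atria (HT) and a progenitor tissue behind the heart, the posterior second heart field (pSHF), which adds cells to the venous pole. Both tissues were microdissected at embryonic day 10 from wild-type (WT) embryos of the outbred CD1 strain, pooled and dissociated, with 3 samples each, and profiled by ATAC-seq, in which the Tn5 transposase cuts and tags accessible DNA. All groups were WT and untreated as far as the labels say. Each group is a dissected tissue piece of mixed cells. The deposited data are 1 peak list per tissue. No value per sample was at hand, so no difference between the tissues could be set against the spread between samples and no test between them was made.

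A peak was assigned to the nearest protein-coding gene body by the position of its summit, up to 100 kb away, and lines of a list with the same interval were merged. This gave 87 peaks, 51 of the 49267 in the HT list and 36 of the 44018 in the pSHF list. They lay at 6 of the 8 genes, and *Pln* and *Sln* received none, as did 24.2% of all 21631 protein-coding genes. Shared peaks are those with an overlap of 1 bp or more with the other tissue's list. Restricted peaks have none, which says only that the other list has no peak there at its threshold. The furthest peak assigned was 43.3 kb from its gene, an HT-restricted peak of *Slc8a1*. The nearest one beyond the window was a pSHF-restricted peak 102.7 kb from *Slc8a1*, with a fold enrichment of 4.85.

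In each heartbeat, calcium enters a heart muscle cell through the L-type channel, whose pore is encoded by *Cacna1c*, and this triggers release from the sarcoplasmic reticulum through the ryanodine receptor RYR2. Junctophilin 2 (*Jph2*) holds the 2 membranes close together, and calsequestrin 2 (*Casq2*) buffers the calcium inside the store. For relaxation the SERCA2 pump (*Atp2a2*) returns calcium to the store under restraint by the small membrane proteins phospholamban (*Pln*) and sarcolipin (*Sln*), of which sarcolipin is known as an atrial form, while the sodium-calcium exchanger NCX1 (*Slc8a1*) expels it from the cell. Embryonic heart muscle beats early and uses this machinery before the chambers are complete.

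The annotated starts fell into 3 kinds. *Ryr2* and *Jph2* had a peak over the start in both lists, the starts of *Slc8a1* and of the outermost listed *Cacna1c* transcript had one in the HT list alone, and *Casq2* and *Pln* had none in either. RefSeq promoter windows of GRCm38.p6, from 250 bases before to 50 after a start, were matched for 6 of the 8 genes, 9 windows in all. A peak overlapped 3 of the 9 windows in both lists (2 of them overlapping windows of *Jph2*), 2 in HT only and 4 in neither. Among all 21045 windows of protein-coding genes the shares were 52.4% in both, 3.2% in HT only, 2.41% in pSHF only and 42.0% in neither.

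Sequence upstream of the start is shown for both windows with an HT peak alone, for *Ryr2* and *Jph2* with peaks in both lists, and for *Casq2* with none. Each is written 5′ to 3′ along the gene's strand. Capitals mark the letters of a searched motif. For *Cacna1c*, 30 bases are given that were cut around the letters of a searched motif. Their middle lies 40 bp from the summit of the HT peak.
Slc8a1 (chr17:81738388-81738637, minus strand): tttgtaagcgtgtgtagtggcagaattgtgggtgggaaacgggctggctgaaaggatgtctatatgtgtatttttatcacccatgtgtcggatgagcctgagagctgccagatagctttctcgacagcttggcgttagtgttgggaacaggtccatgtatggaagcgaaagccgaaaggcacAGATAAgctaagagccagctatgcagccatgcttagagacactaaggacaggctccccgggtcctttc
Cacna1c (chr6:119196541-119196570, minus strand): tgacgaacTGACAGgcTGACAGaagccatt
Ryr2 (chr13:12106946-12107195, minus strand): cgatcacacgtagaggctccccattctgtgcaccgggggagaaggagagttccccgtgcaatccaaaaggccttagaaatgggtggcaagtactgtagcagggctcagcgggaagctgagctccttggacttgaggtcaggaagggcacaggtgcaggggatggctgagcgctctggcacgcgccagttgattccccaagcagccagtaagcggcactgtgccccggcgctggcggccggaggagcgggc
Jph2 (chr2:163398050-163398243, minus strand): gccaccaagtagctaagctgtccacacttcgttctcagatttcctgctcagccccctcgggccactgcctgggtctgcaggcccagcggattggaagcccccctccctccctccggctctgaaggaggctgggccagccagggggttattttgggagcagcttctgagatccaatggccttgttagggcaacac
Casq2 (chr3:102086165-102086414, plus strand): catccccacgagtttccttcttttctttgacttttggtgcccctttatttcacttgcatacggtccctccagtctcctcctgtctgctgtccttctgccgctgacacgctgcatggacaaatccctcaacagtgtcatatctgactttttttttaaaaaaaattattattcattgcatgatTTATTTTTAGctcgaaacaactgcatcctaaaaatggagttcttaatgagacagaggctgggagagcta

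The motifs were searched on both strands of the whole windows. The letters were AGATAA for Gata factors, CATTCC for Tead factors, CATCTG for the E-box of Hand factors, and the MEF2 and CArG consensus sequences by name. For Nkx2-5 they were CACTTGA (2.98% of all windows) and a looser core that includes it, CACTTNA (10.9%). The others were AGGTGTGA for T-box factors, TGACAG for Meis factors, GGGTGGTC for Gli factors and TGTTTAC for Fox factors. The share of windows was 13.5% for the Tead letters, 1.54% for CArG, 1.16% for T-box, 0.746% for Gli and 3.03% for Fox, and no member window held any of these or of the Nkx2-5 letters. The *Slc8a1* window held AGATAA once, 68 bases before the start, as 9.68% of all windows did at least once and 14.6% of those with an HT peak alone. The *Cacna1c* window held TGACAG 3 times, 2 of them side by side before the start. At least 1 such match was found in 18.3% of windows and at least 2 in 2.14%. The share with at least 2 was computed for this motif alone. *Casq2* had a MEF2 consensus match (2.61% of windows) and *Pln* the AGATAA letters on its reverse strand, both at windows without a peak. The other 2 windows of *Cacna1c* held CATCTG, as did 14.4% of all. The *Ryr2* and *Jph2* windows held none of these letters. Such matches describe letters and not bound sites.

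The windows also differed in base composition. G and C made up 65.3% of the *Ryr2* window, with 18 CpG dinucleotides, and 63.0% and 63.7% of those of *Jph2*, with 7 and 8. The median over all windows with peaks in both lists was 62.7% (quartiles 57.0 and 68.7) and 23 CpG. The windows with an HT peak alone had 50.7% and 9 CpG at *Slc8a1* and 51.3% and 3 CpG at *Cacna1c*, where the median of that class was 57.3% and 11. *Casq2* had 44.7% and 6 CpG and *Pln* 36.0% and 1, beside a median of 48.0% and 3 in windows with no peak. A window at another *Cacna1c* start, 87.9 kb further into the gene, was of 81.3% G and C with 57 CpG. No peak overlapped it, but a shared site lay upstream, with summits 749 bp (HT) and 536 bp (pSHF) from that start.

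Across the 6 genes with peaks, restricted peaks outnumbered shared ones in the atria and equalled them in the pSHF. Of the 51 HT peaks, 35 were HT-restricted (68.6%, 95% Clopper-Pearson interval 54.1 to 80.9), where 43.7% of the 45416 HT peaks near any protein-coding gene were. Of the 36 pSHF peaks, 18 were pSHF-restricted (50%, 32.9 to 67.1), where 31.8% of 40389 were. The pSHF interval lay above the background in 11 of 19 alternative settings, against 19 of 19 for HT. No setting was limited to peaks inside a gene, where the HT interval (57.8 to 87.9) held its background value of 58.9%. The pSHF interval held the background value without *Cacna1c* (41.7%, 22.1 to 63.4), without *Slc8a1* (43.3%, 25.5 to 62.6), by nearest gene end (40%, 21.1 to 61.3) and with every peak within 100 kb of a member (40.9%, 29.0 to 53.7). With only pSHF peaks from a −log10 q of 5 upward the pSHF share was 9.09% (1 of 11), below a background of 10.2%. These intervals cover counting error over peaks only. The 87 peaks fell into 68 separate sites, of which 35 were HT-restricted, 18 pSHF-restricted and 15 shared.

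Peaks of the 8 genes also differed from the background in place. That background was not matched for gene length, and *Ryr2*, *Cacna1c* and *Slc8a1* span 554, 610 and 365 kb. Inside a gene and more than 1 kb from any gene end lay 70.6% of the HT peaks and 72.2% of the pSHF peaks of the 8 genes, beside 41.7% and 36.8% of all peaks near a gene. Within 1 kb of a gene end lay 11.8% and 13.9%, beside 31.8% and 38.5%. Between genes lay 17.6% and 13.9%, beside 26.6% and 24.7%. Of the peaks inside a gene, 27 of 36 in HT were restricted (75%, 57.8 to 87.9, background 58.9%) and 17 of 26 in pSHF (65.4%, 44.3 to 82.8, background 44.8%). Both intervals hold their background value. At gene ends 2 of 6 HT peaks were restricted (background 13.9%) and 0 of 5 pSHF peaks (background 11.3%). Between genes 6 of 9 HT peaks were restricted (background 55.5%) and 1 of 5 pSHF peaks (background 44.4%). Among peaks more than 1 kb from a gene end, the HT-restricted share was 73.3% (58.1 to 85.4) beside 57.6% for all such HT peaks, and the pSHF-restricted share was 58.1% (39.1 to 75.5) beside 44.6%. The pSHF interval holds its background value, and the HT interval begins just above its own.

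Fold enrichment at the summit, the authors' own value from their peak caller, ranged from 3.12 to 12.0 over the 35 HT-restricted peaks with a median of 4.93, and from 3.23 to 5.72 over the 18 pSHF-restricted peaks with a median of 4.31. The medians over all restricted peaks near a gene were 4.81 in HT and 4.30 in pSHF. A −log10 q of at least 5 was reached by 21 of the 35 HT-restricted peaks (60.0%, 42.1 to 76.1), beside 40.7% of all HT-restricted peaks, and by 1 of the 18 pSHF-restricted peaks (5.56%, 0.141 to 27.3), beside 15.5%. These 21 are 95.5% of the 22 from both lists, where 80.3% of all 10060 such peaks near a gene came from HT. Among shared peaks it was reached by 14 of 16 in HT (background 77.8%) and by 10 of 18 in pSHF (background 63.6%). The smallest width of the pSHF list, 118 bp, was that of 7 of the 18 pSHF-restricted peaks (38.9%), beside 21.5% of all. In the HT list the smallest width of 121 bp was that of 3 of 35 (8.57%), beside 16.9%. Each list has its own threshold and scale, so folds are compared with others of their list.

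**Figure D1:**
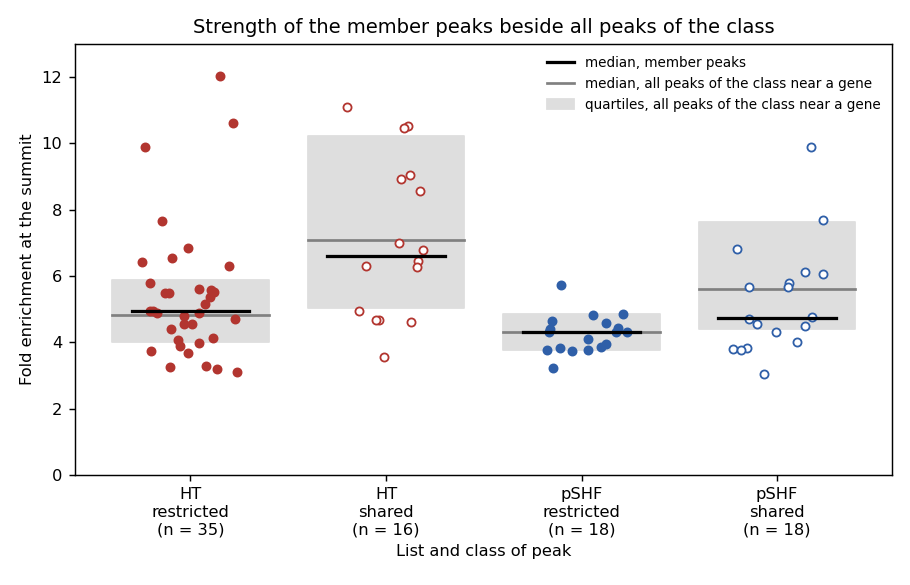
Fold enrichment at the summit (vertical axis, ratio to the caller's background) of each member peak by list and class. Points are peaks, black lines their medians, grey lines and bands the medians and quartiles of all peaks of the class near a gene. The HT-restricted points reach 12.0 and the pSHF-restricted points stop at 5.72.

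By gene, restricted peaks were more numerous in HT at 3 members, *Ryr2*, *Jph2* and *Casq2*, and equal in number at *Cacna1c*, *Atp2a2* and *Slc8a1*. None had more in the pSHF. Among the 11059 genes with a restricted peak, 57.8% had more in HT and 29.6% more in pSHF, so 3 of 6 members is a share near the background. With only restricted peaks at a −log10 q of at least 5 counted, HT had more at all 6, at *Atp2a2* by 1 peak to 0. Of the 5961 genes with such a peak, 78.0% had more in HT, and a difference from this share was not tested. The same cutoff was applied to 2 lists of unknown read depth, and 80.3% of all such peaks near a gene came from HT.

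**Figure D2:**
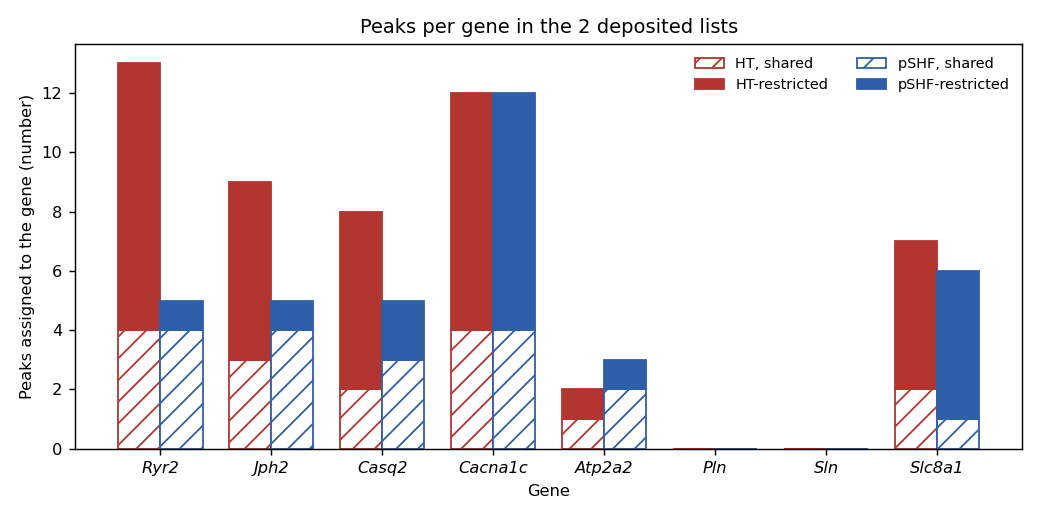
Number of peaks assigned to each gene (vertical axis) in the HT list (red) and the pSHF list (blue). Hatched parts are shared and filled parts restricted. *Ryr2* has 9 HT-restricted peaks and 1 pSHF-restricted peak, *Cacna1c* 8 of each, and *Pln* and *Sln* none.

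*Ryr2*, the release channel gene (chromosome 13, 11553099 to 12106945, minus strand, 554 kb), carried 13 HT peaks and 5 pSHF peaks. All but 1 of its pSHF peaks were shared, and 9 of its HT peaks were restricted. Of the 13 HT peaks, 8 lay between 26.7 kb before the start and 70.0 kb after it, as did 4 of the 5 pSHF peaks. At the start the fold enrichment was 9.04 in HT and 6.06 in pSHF. A site 26.7 kb upstream, between genes, reached 10.5 in HT (−log10 q 27.7) and 6.11 in pSHF (8.44). The strongest restricted peak of *Ryr2*, which was also that of the 8 genes, lay deep in the gene, 270.0 kb past the start (chromosome 13, 11836654 to 11837145). Its fold enrichment was 12.0 and its −log10 q 26.9, above 91.9% of the HT list. A weaker HT-restricted peak of 5.48 stood 281.1 kb past the start, and the other 7 ranged from 3.68 to 4.93. The only pSHF-restricted peak, 173.1 kb past the start, had a fold enrichment of 3.77, above 14.7% of its list. An HT-restricted peak of 4.93 lay 7091 bp past the far end of the gene.

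*Jph2*, which encodes the protein that ties surface membrane to store (chromosome 2, 163336242 to 163398049, minus strand, 61.8 kb), had 6 HT-restricted peaks and 1 pSHF-restricted peak. The start was open in both lists, with a fold enrichment of 8.92 in HT and 6.83 in pSHF. All 6 HT-restricted peaks lay inside the gene and all passed a −log10 q of 5, with folds of 3.87 to 5.52. The strongest of them was 5.4 kb past the start. A run of 4 others lay 34.6 to 41.7 kb past the start, over the span of the noncoding gene *Gm35750* inside *Jph2* (163356334 to 163365260). Close by, 44.1 kb past the start, a shared site of 6.46 in HT (−log10 q 16.2) was split in the pSHF list into peaks of 3.79 and 3.03, the latter with a −log10 q of 1.32, near the lowest value that list holds (1.3013). The pSHF-restricted peak, at 21.8 kb, had a fold enrichment of 3.86 and the smallest width of its list.

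*Casq2*, the gene of the calcium buffer of the store (chromosome 3, 102086415 to 102146514, plus strand, 60.1 kb), had no peak within 1 kb of its start in either list. Its shared sites lay upstream. The one 23.8 kb before the start (chromosome 3, 102062408 to 102062950 in HT) stood at a fold of 10.5 in HT (−log10 q 29.9), above 86.7% of that list, and at 3.84 in pSHF (2.50), above 20.3% of its list. The other, 4.4 kb before the start, had 6.27 in HT and was split into 5.66 and 4.76 in pSHF. Of the 6 HT-restricted peaks, 4 lay inside the gene. The strongest of these, 6.42, was 1913 bp short of the far end. *Casq2* also held the strongest pSHF-restricted peak of the set, inside the gene at chromosome 3, 102135672 to 102135898 (fold 5.72, −log10 q 6.15). A weaker pSHF-restricted peak of 4.44 stood beside it, and the HT list had none between 44.6 and 57.3 kb past the start.

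*Cacna1c*, which encodes the pore of the L-type channel (chromosome 6, 118587240 to 119197384, minus strand, 610 kb), had 8 restricted peaks in each list and 4 shared peaks in each. The HT-restricted peak at the outermost listed start (chromosome 6, 119196484 to 119196882) reached 9.89 (−log10 q 20.8), above 84.2% of the HT list. Its summit lay 186 bp upstream of that start and 789 bp inside the gene's outer end, and the nearest pSHF summit was 20841 bp from the start. *Dcp1b*, an mRNA decapping cofactor gene on 119175253 to 119221614, overlaps this part of *Cacna1c*, so the peak counts for both. Of the other HT-restricted peaks, 4 lay between 113.7 and 195.8 kb past the gene's outer end with folds of 5.61 to 6.83. The remaining 3 had folds of 3.12 to 4.39. The 8 pSHF-restricted peaks had folds of 3.74 to 4.84 and none reached a −log10 q of 5, which 5 of the 8 HT-restricted ones did. A pSHF peak of 3.95 at 112.9 kb and the HT peak of 6.83 at 113.7 kb were 635 bp apart and did not overlap.

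The far part of *Cacna1c* held more pSHF-restricted than HT-restricted peaks. From 246.9 kb past the outer end onward, a bound chosen after the values were seen, 7 of the 8 pSHF-restricted peaks and 2 of the 8 HT-restricted peaks were found. A pair stood near 550.4 kb. Another pair, at 603.1 and 603.9 kb, flanked a shared site of 4.68 in HT and 3.78 in pSHF, each within 500 bp of the HT peak. The strongest shared site of *Cacna1c*, 11.1 in HT and 9.89 in pSHF, lay 21.8 kb inside the gene, over an end of *Dcp1b*.

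*Atp2a2*, the SERCA2 pump gene (chromosome 5, 122453513 to 122502225, 48.7 kb), had few peaks, 2 in HT and 3 in pSHF, and none inside the gene beyond its end. The end at 122502225 was covered in both lists. The HT peak there had 3 summits and a fold enrichment of 8.56, and the pSHF peak had 7.69. A second pSHF peak, of 4.01, overlapped the same HT peak and had its summit 505 bp outside that end. The pSHF peak of 7.69 was above 84.2% of its list and the HT peak above 77.5%. An HT-restricted peak of 5.57 (−log10 q 8.43) lay 19010 bp outside that end and a pSHF-restricted peak of 4.11 (2.87) 8763 bp outside it.

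*Slc8a1*, the exchanger gene (chromosome 17, 81373105 to 81738387, minus strand, 365 kb), had 5 restricted peaks in each list. The start carried an HT-restricted peak (chromosome 17, 81738262 to 81738600) of 10.6-fold enrichment (−log10 q 22.0), above 87.2% of the HT list. Its summit was 101 bp upstream of the start, and the nearest pSHF summit was 68882 bp away. A further HT-restricted peak of 7.67 lay 43.3 kb upstream, between genes. The other 3 had folds of 3.29 to 5.78. The 5 pSHF-restricted peaks were all inside the gene, 83.6 to 304.9 kb past the start, with folds of 3.23 to 4.85, and 3 of them had the same value of 4.31. The shared site, 68.9 kb past the start, was 1 wide peak in pSHF (977 bp, fold 4.70) and 2 peaks in HT (4.66 and 3.55).

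**Figure D3:**
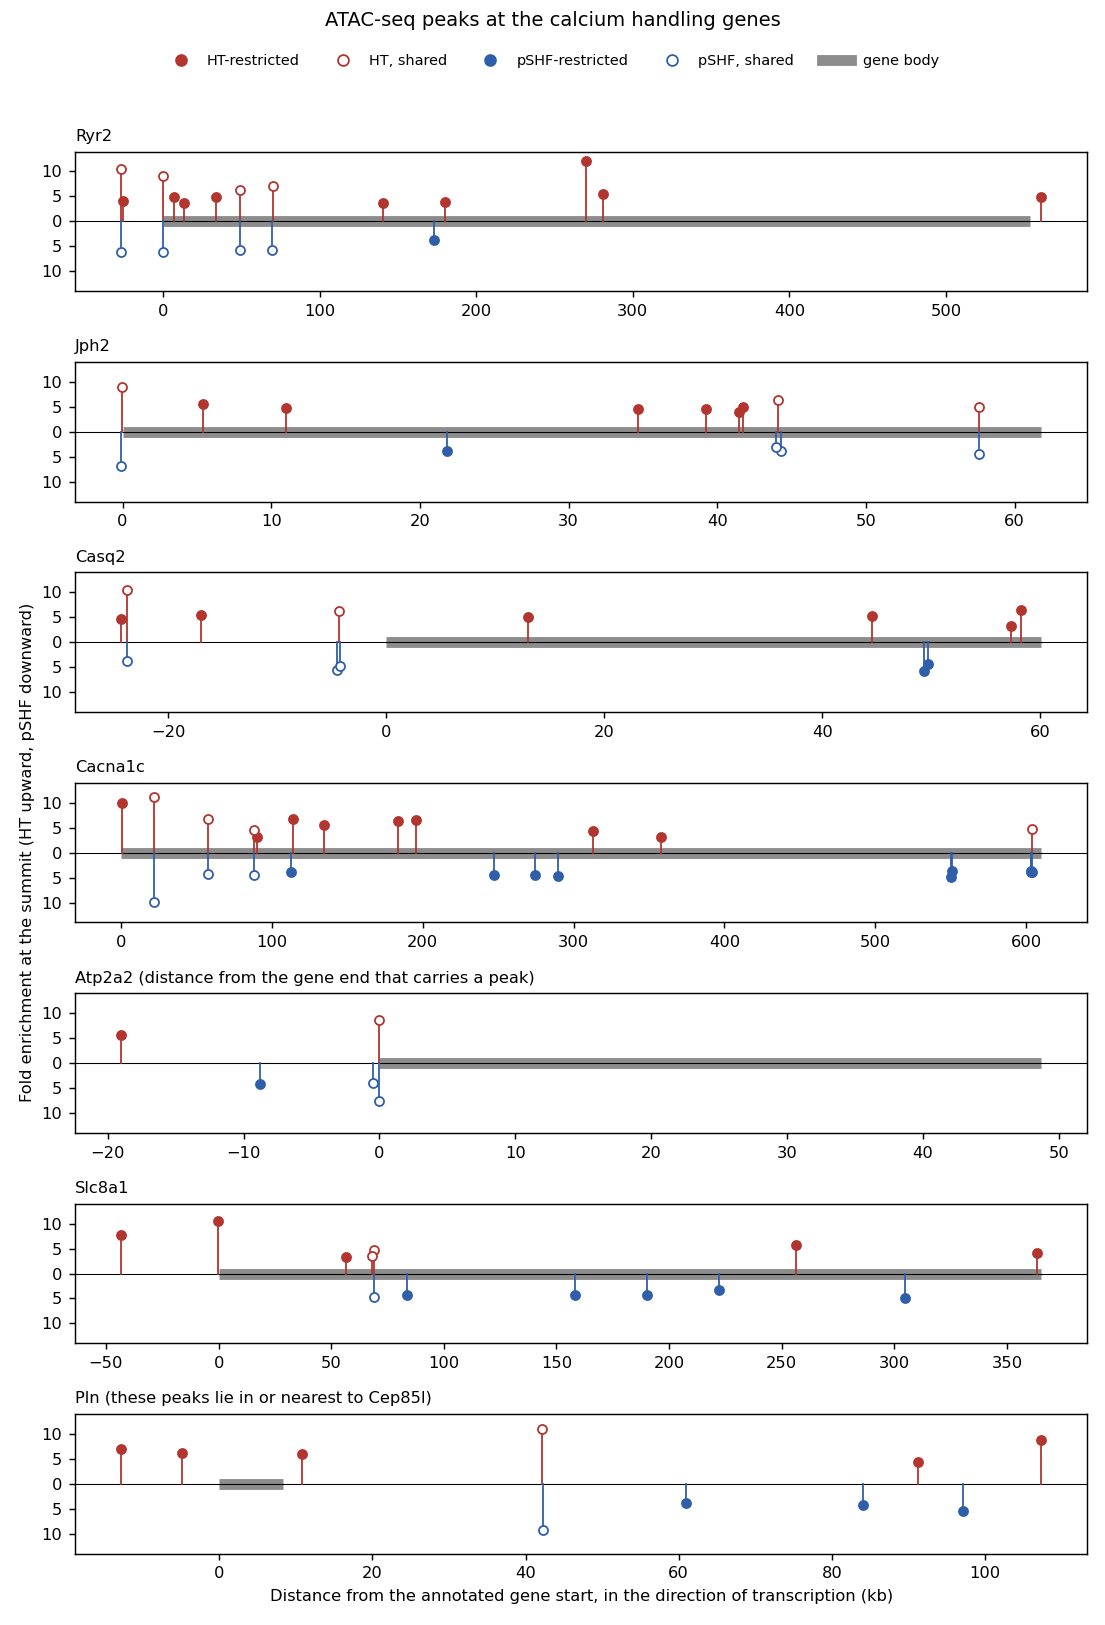
Peaks along 7 genes: the horizontal axis is the distance of the summit from the gene start in kb (for *Atp2a2* from the end that carries a peak), the vertical axis the fold enrichment, with HT upward and pSHF downward. Filled points are restricted, open points shared, and the grey bar is the gene body. The peaks around *Pln* are those assigned to *Cep85l*. The tall filled HT points at the start of *Slc8a1* (10.6) and *Cacna1c* (9.89) and inside *Ryr2* (12.0) have no pSHF point opposite.

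*Pln*, the phospholamban gene (chromosome 10, 53337686 to 53345999), lies wholly inside the span of *Cep85l* (53273441 to 53379883), so every peak around it went to *Cep85l*. Within 100 kb there were 6 HT and 4 pSHF peaks. The 3 closest to *Pln* were HT-restricted. The peak 4786 bp before the start had a fold enrichment of 6.17 (−log10 q 6.69), that 12797 bp before it had 6.95 (8.17), and the one 2504 bp past the far end had 6.03 (6.21). No pSHF peak lay nearer to *Pln* than 33.9 kb, where a shared site of 11.0 in HT and 9.20 in pSHF covers an end of *Cep85l*. By nearest gene end instead of gene body, those 3 HT-restricted peaks were the peaks of *Pln* and the pSHF had none.

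*Sln*, the sarcolipin gene (chromosome 9, 53850251 to 53853849), had no peak nearest to it under either rule. The peak closest to it was HT-restricted, 24.8 kb away, with a fold enrichment of 4.81 (−log10 q 3.96), and was assigned to *Slc35f2*. A pSHF-restricted peak of 4.31 at 36.4 kb was assigned to *Elmod1*.

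The 15 shared sites stood differently in the rank order of their own lists. At 7 of them the pSHF summit, and at 4 the HT summit, was weaker than 50% of its list. The start of *Jph2* was above 79.5% of the HT list and 77.9% of the pSHF list, and the *Ryr2* sites at 70.0 kb above 66.5% and 66.8%. The upstream *Casq2* site (86.7% and 20.3%), the *Jph2* site at 44.1 kb (61.2% and 19.2%) and the *Cacna1c* site at 57.6 kb (64.7% and 30.8%) stood lower in the pSHF list. In all, 8 sites stood lower and 7 higher there, the latter including the *Slc8a1* site (31.2% and 43.8%), the *Cacna1c* site near its second listed start (30.4% and 40.2%) and the *Casq2* site 4.4 kb upstream (59.5% and 65.1%). The lists differ in length, so these ranks measure no change.

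**Figure D4:**
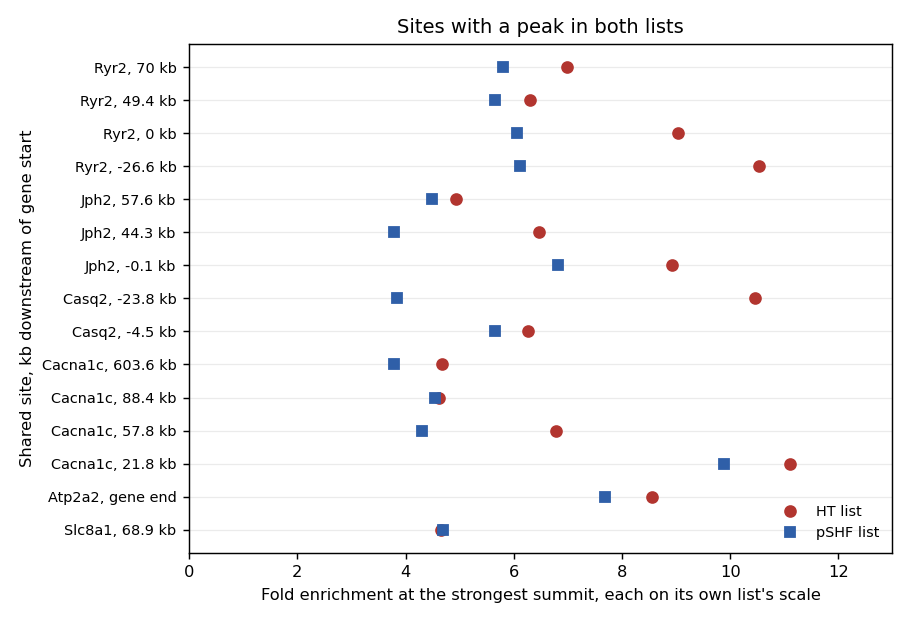
Fold enrichment (horizontal axis) of the strongest summit at each of the 15 shared sites in the HT list (circles) and the pSHF list (squares), each on its own list's scale. Labels give the gene and the distance of 1 of the site's summits from its start in kb, negative upstream. The *Casq2* site 23.8 kb upstream has 10.5 and 3.84.

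Among 43 other genes of calcium handling, 26 had more HT-restricted and 6 more pSHF-restricted peaks, with 5 equal and 6 without a restricted peak. The 26 are 70.3% of the 37 with a restricted peak, beside the 57.8% of all genes. Their HT-restricted share, 55.7% of HT peaks, lay between that of the 8 genes and the background of 43.7%, and so did their pSHF-restricted share, 42.9% beside 31.8%. That background was not matched for gene length or place. Of all peaks inside a gene, 58.9% in HT and 44.8% in pSHF were restricted. HT gave 62.0% of the restricted peaks of the 43 genes, near the 60.7% among all. Of 16 genes of release and of the junction, HT had more at 7 and pSHF at 3. *Trdn*, encoding triadin, which anchors calsequestrin to the release channel, had 5 HT-restricted and 0 pSHF-restricted peaks. *Srl*, encoding sarcalumenin of the reticulum, had 4 and 0, and *Ryr3*, a ryanodine receptor of other tissues, had 2 and 5. Of 5 uptake genes, 3 had a restricted peak, and HT had more at 3 and pSHF at 0. The counts were 5 and 1 at the mitochondrial uniporter gene *Mcu* and 2 and 0 at the pump gene *Atp2a3*. *Atp2a1* and *S100a1* had no peak of either list, as had *Hrc* of the junction.

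Of 6 extrusion genes HT had more at 4 and pSHF at 1. The plasma membrane pump gene *Atp2b1* had 7 restricted peaks in HT and 2 in pSHF, and its relative *Atp2b2* had 3 and 5. Of 7 entry genes, 6 had a restricted peak, and HT had more at 4 and pSHF at 2. The counts were 8 and 4 at *Cacnb2*, which encodes an auxiliary subunit of the L-type channel. Of 9 signaling genes, 8 had a restricted peak, and HT had more at 8 and pSHF at 0. *Camk2d*, a calcium and calmodulin dependent kinase gene of heart, had 11 and 3, and the phosphodiesterase gene *Pde3a* had 6 and 2. Over the 43 genes, 50 of 137 HT-restricted and 10 of 84 pSHF-restricted peaks reached a −log10 q of 5. These shares, 36.5% and 11.9%, were below the 40.7% and 15.5% of all restricted peaks.

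Markers of the tissues were unevenly split between the lists. Over all genes, 60.7% of restricted peaks came from HT and 57.8% of genes with one had more in HT, beside which these counts stand. Of 8 cardiomyocyte genes, HT had more restricted peaks at 7, with 21 HT-restricted peaks against 1, and *Nkx2-5*, *Nppa*, *Myh6*, *Myh7* and *Ttn* had no pSHF peak. The exception was *Tnnt2*, with the 1 pSHF-restricted peak. At progenitor field genes the counts were 5 (HT) and 16 (pSHF), with none of 6 ahead in HT. At a −log10 q of at least 5 they were 1 and 1, beside 14 and 0 at the cardiomyocyte genes. Of the 6 progenitor field genes, 5 (all but *Tbx1*) had shared peaks in the HT list. Restricted peaks at markers of other cell types were counted too. In the same order the counts were 11 and 0 at erythroid genes, ahead in HT at 4 of 5. They were 26 and 7 at endothelial genes, ahead in HT at 5 of 5, and 8 and 16 at foregut endoderm genes, ahead in pSHF at 4 of 4. Smooth and skeletal muscle genes had 3 and 4. The part of these cells in the calcium gene peaks was not tested, and in pooled tissue more cells of a type and more open chromatin per cell cannot be told apart.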

How the data were processed

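ATAC-seq peaks of 3 pSHF and 3 HT samples were used as 1 list per tissue. MACS2 2.1.1, Bowtie2 2.3.2, Picard, SAMtools 1.5 and build mm10 are named in the submitters' processing notes. Their parameters were not given in the sources used here, nor whether samples were pooled before peak calling. For each summit the authors deposited a score (not used), a fold enrichment (a ratio to background) and a −log10 q. Read depth is unknown.

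Intervals listed more than once were merged, with the summit of highest fold kept (60223 HT and 58887 pSHF lines). Genes and promoter windows came from RefSeq tables of GRCm38.p6, whose chromosomes are those of mm10. The gene table gives no exons, so exons, introns and UTRs were not separated. A summit inside 2 overlapping genes counted for both. Shares carry exact intervals (scipy 1.17.1), and overlap and assignment were tested on simulated data. All 8 genes are described with the strongest peak of each class and those at gene ends. Of the other pathway genes, up to 3 per list with the largest difference are named, and genes tied past that number are not. A gene that this rule would name is not reported here. Members, lists and motifs were chosen with earlier results of these data known.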

Additional observations from a re-analysis of the deposited data

How the results depend on the processing

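The HT-restricted share of the HT peaks at the 8 genes (68.6%) stayed within its interval under 17 of 19 alternatives and above the background share under all 19. None of these was limited to peaks inside a gene, where the interval (57.8 to 87.9) holds the background of 58.9%. The share was 82.4% with a 50% reciprocal overlap and 52.2% among peaks of median fold or more. The background share was not recomputed with a gene left out, with tied peaks left out or with every peak within 100 kb of a member. There the main value (43.7% in HT) was used. The pSHF-restricted share (50%) stayed within its interval under 15 of 19. It was 75% with reciprocal overlap, 20% at median fold or more (2 of 10 peaks), and 9.09% (1 of 11) at a −log10 q of at least 5, whether or not the other list was limited likewise, then below backgrounds of 18.6% and 10.2%. Leaving out each gene gave 67.4% to 69.4% in HT and 41.7% to 54.8% in pSHF. With Ryr2 and Jph2, HT had more restricted peaks under all 13 alternatives, and with Casq2 under 12 and equal numbers under 1. Cacna1c ranged from -2 to 6 (HT minus pSHF) and Slc8a1 from -1 to 3. Leaving out peaks tied between genes was chosen after seeing the data. Leaving out a sample was not run, since each list stands for its tissue. No paired analysis was possible because the lists carry no replicate numbers.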
